A study of Mus musculus with 14 samples.

Results

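CXC chemokines are small secreted proteins that direct white blood cells, and 9 mouse genes of the family were followed here across macrophages of 2 genotypes in 2 media. They were taken by name as a family, by a rule that uses no measured value, though with earlier results of these data known. They are Cxcl1, Cxcl2, Cxcl3 and Cxcl5, which attract neutrophils, Cxcl9, Cxcl10 and Cxcl11, which interferon induces, and Cxcl14 and Cxcl16. Matching RefSeq accessions gave 9 probes for 8 of the 9 genes among 55634 probes on the array. All 8 passed the filter on dim probes, out of 15835 genes tested. No probe carries the accession that the RefSeq table gives for Cxcl11, so Cxcl11 is not analysed here. The array holds probes under another accession for Cxcl11, which that table lacks, and these were not matched or examined. The RefSeq table lists Cxcl11 as a transcribed pseudogene.

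The neutrophil attractants act on neutrophils through the receptor Cxcr2, and macrophages make them within hours when toll-like receptor, IL-1 or TNF signals reach NF-kB. Cxcl9, Cxcl10 and Cxcl11 bind Cxcr3 on activated T cells and natural killer cells, and interferons induce them through STAT and IRF factors. Cxcl10 also responds to NF-kB. Cxcl14 is mostly made without a stimulus, in epithelia above all, and Cxcl16 is a membrane-bound ligand of Cxcr6 that is released by proteolysis.

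Female C57BL/6 mice, 8 weeks old, gave the bone marrow, from which M-CSF grew macrophages that then spent 24 h in 1 of 2 media. The 4 groups were LysM-Double-Cre x TFEB transgene+ macrophages (TFEB-tg, here transgenic) with EO771 conditioned medium and tumour lysate in DMEM (2 replicates on 3 arrays), LysM-Double-Cre x TFEB transgene- macrophages (TFEB-wt, here wild-type) with the same tumour material (3 replicates on 4 arrays), transgenic macrophages in DMEM only (3 replicates on 3 arrays) and wild-type macrophages in DMEM only (3 replicates on 4 arrays). EO771 is a mouse mammary tumour line. All 4 groups carry the LysM Cre, whose promoter is that of the lysozyme gene Lyz2 and is active in macrophages and neutrophils, so the wild-type cells are Cre controls and not unmodified cells. TFEB is a transcription factor of lysosomal and autophagy genes. Replicate 1 of the transgenic tumour group is not analysed here. The labels call the replicates biological without saying whether each is 1 animal, so p-values measure the spread between these samples. Repeat arrays of a replicate entered the fit almost as separate samples, so the spread between arrays is part of what the p-values measure.

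Between 35.5% and 40.2% of spots per array lay well above background. Of 8 macrophage markers, 7 were above background on every array of every group. Lyz2 was above background on no transgenic array and on some but not all arrays of each wild-type group. None of 6 epithelial markers was above background on any array. Tfeb differed by 0.71 log2 units between transgenic and wild-type cells with tumour material (limma adjusted p = 0.0226) and by 0.31 in control medium (adjusted p = 0.161). Replicate 1 of the transgenic control group stood apart, with array correlations of 0.959 and 0.957 to the other replicates, which correlated at 0.981. Its 9 neutrophil markers summed to 684.5 times the array's 75th percentile, against 211.6 and 236.7 in the other transgenic control replicates and 279.3 to 297 in wild-type control. All arrays of the transgenic tumour group were on slide 2. Slide column 4 held 3 arrays, all transgenic: a repeat of tumour replicate 3 and control replicates 1 and 2.

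The promoters of 3 neutrophil attractants and 2 interferon-induced members are shown to set their motif letters side by side. RefSeq (GRCm38.p6) gave the promoters of 6 of the 9 members, all but Cxcl5, Cxcl11 and Cxcl16, and each line holds the 250 bases before the annotated start, 5′ to 3′ along the gene. Capitals mark matches on either strand to an NF-kB-like motif (GGG, any 3 bases, TTCC) or to an interferon response element-like motif (GAAA, any 2 bases, GAAA). A further motif searched, TTCNNNGAA, resembles a gamma-activated site. The windows are chr5:90890995-90891244 (plus strand) for Cxcl1, chr5:90903649-90903898 (plus strand) for Cxcl2, chr5:90785851-90786100 (plus strand) for Cxcl3, chr5:92328080-92328329 (minus strand) for Cxcl9 and chr5:92348890-92349139 (minus strand) for Cxcl10.
Cxcl1: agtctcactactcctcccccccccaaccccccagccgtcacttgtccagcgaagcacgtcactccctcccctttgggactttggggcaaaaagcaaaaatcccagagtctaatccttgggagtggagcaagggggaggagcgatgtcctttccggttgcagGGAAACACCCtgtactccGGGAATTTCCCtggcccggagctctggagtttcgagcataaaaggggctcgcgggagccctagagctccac
Cxcl2: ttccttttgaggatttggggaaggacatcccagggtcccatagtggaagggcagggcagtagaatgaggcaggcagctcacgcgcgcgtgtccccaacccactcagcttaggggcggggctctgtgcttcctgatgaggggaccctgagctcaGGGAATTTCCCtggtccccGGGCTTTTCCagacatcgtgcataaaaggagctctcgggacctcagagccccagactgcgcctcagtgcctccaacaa
Cxcl3: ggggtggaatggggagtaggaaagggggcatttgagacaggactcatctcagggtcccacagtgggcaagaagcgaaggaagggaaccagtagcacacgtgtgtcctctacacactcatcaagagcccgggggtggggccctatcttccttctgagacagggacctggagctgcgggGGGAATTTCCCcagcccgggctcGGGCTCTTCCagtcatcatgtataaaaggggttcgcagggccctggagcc
Cxcl9: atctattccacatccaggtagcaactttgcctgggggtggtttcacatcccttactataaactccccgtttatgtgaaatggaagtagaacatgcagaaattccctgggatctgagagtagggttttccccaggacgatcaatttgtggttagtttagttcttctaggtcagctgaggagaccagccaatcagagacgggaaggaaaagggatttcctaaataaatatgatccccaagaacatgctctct
Cxcl10: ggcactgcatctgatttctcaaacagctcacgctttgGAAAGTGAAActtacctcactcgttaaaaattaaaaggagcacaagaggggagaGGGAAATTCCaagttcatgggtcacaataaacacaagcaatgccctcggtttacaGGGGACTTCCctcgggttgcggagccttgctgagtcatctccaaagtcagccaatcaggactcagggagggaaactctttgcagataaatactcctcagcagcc

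The run GGGAATTTCC ended 62 bases before the start in Cxcl1, 88 in Cxcl2 and 64 in Cxcl3. In each of these genes it was overlapped by a match on the other strand that began 1 base further along. Each of the 3 genes held a further NF-kB-like match, GGAAACACCC in Cxcl1 (a match on the other strand), GGGCTTTTCC in Cxcl2 and GGGCTCTTCC in Cxcl3. Cxcl10 held 2 separate NF-kB-like matches, GGGAAATTCC and GGGGACTTCC, and the interferon response element-like match GAAAGTGAAA, which ended 204 bases before the start. None of the 3 motifs was found in the Cxcl9 window. Cxcl14, on chromosome 13, held GAAACAGAAA and the gamma-activated-site-like TTCTGAGAA and no NF-kB-like match. Of 32851 mouse promoters in the table, 4.65% held the NF-kB-like motif in this window, 2.98% the interferon response element-like one and 7.02% the gamma-activated-site-like one. A match is a run of letters and not a measured binding site.

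**Figure D1:**
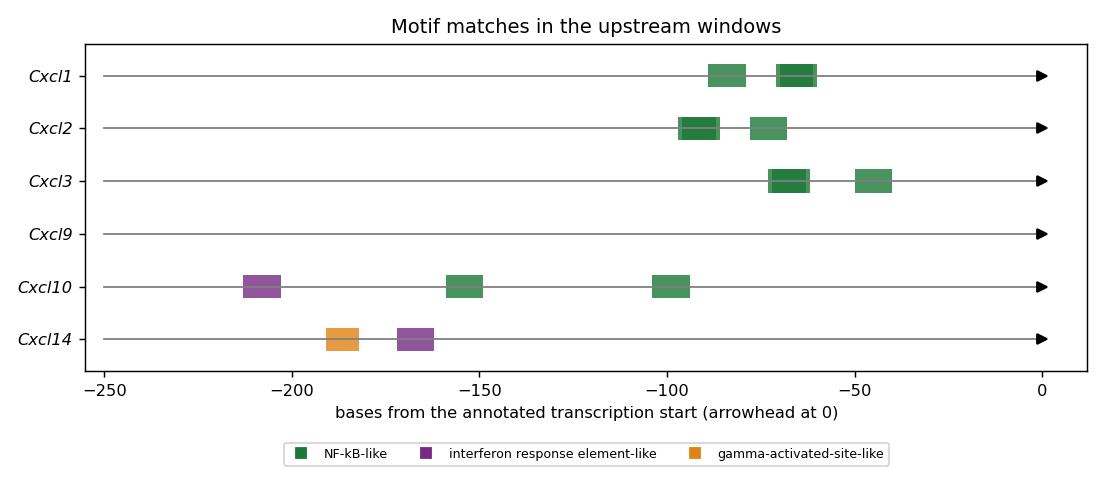
Positions of motif matches in the 250 bases before the annotated start of 6 members; the x axis is the distance from the start in bases, boxes are matches on either strand and darker boxes are overlapping matches. NF-kB-like matches lie in the 97 bases nearest the start in Cxcl1, Cxcl2 and Cxcl3, and the Cxcl9 window is empty.

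The first question was what tumour material changed in macrophages of each genotype. Tumour material was followed by higher levels of all 4 neutrophil attractants in both genotypes, by higher Cxcl10 and Cxcl16 in both, and by higher Cxcl9 in wild-type cells. Cxcl14 did not pass the test in either genotype. Of 8 members, 6 were higher in transgenic cells, where 15.4% of all genes tested were, and 7 were higher in wild-type cells, where 22.6% were. In both genotypes 0 members were lower, against 9.98% of all genes in transgenic and 17.1% in wild-type cells. The tumour replicates lay wholly above the control replicates for the same 6 members in transgenic cells (29.9% of all genes) and the same 7 in wild-type cells (31.8%), and wholly below for none (20.8% and 26.3%). The 4 neutrophil attractants passed the filter on dim probes through the tumour groups only. Neither control group was above background for them on all its arrays. Genes kept in this way could hardly come out lower with tumour material, so these counts do not test the direction of the attractants. Levels are in log2 units relative to the 75th percentile of all probes on the same array, which stands at 0, and they are not compared between genes because probes differ in brightness. Differences are log2 units from a limma fit to all 14 arrays, and a gene was called at a Benjamini-Hochberg adjusted p under 0.05 over all genes tested. Neutrophil markers were lower with tumour material: 8 of 8 tested fell in transgenic cells (median −3.43) and 7 of 8 in wild-type cells (median −2.24). Their summed level was 38.8 to 42.4 in transgenic tumour and 64.0 to 107.9 in wild-type tumour, against 211.6 to 684.5 in transgenic control and 279.3 to 297 in wild-type control, in multiples of the array's 75th percentile. Their part in the chemokine response was not tested. In bulk RNA of this kind, fewer cells that make a transcript and less transcript per cell cannot be told apart.

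Cxcl1, a Cxcr2 ligand first described in mouse as KC, stood at 1.15 and 1.40 in transgenic cells with tumour material, against −4.31, −4.36 and −4.98 in transgenic control cells. In wild-type cells it stood at 2.93, 2.73 and 3.18 with tumour material, against −3.47, −4.48 and −4.27 in control medium. No control array was well above background for Cxcl1, so its rise is a bound, at least 23.2-fold in transgenic cells (adjusted p = 8.43e-08) and at least 47.4-fold in wild-type cells (adjusted p = 7.71e-10). These bounds set the group with signal against the dimmest signal that still counts as above background on each control array, or the probe's own signal where that is higher. They belong to the main processing only. Among the alternatives run, the Cxcl1 calls held, but the lowest fitted difference was 2.09 log2 units in transgenic and 3.49 in wild-type cells. Both lie below the bounds.

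Cxcl2, the ligand also known as MIP-2, followed the same course. It stood at 2.49 and 2.23 in transgenic cells with tumour material, against −3.98, −4.05 and −4.93 in transgenic control cells, none of them above background. Wild-type cells had 3.28, 3.07 and 3.41 with tumour material, against −3.92, −4.42 and −4.15 in control medium, again below background on every array. It was at least 49.3-fold higher in transgenic (adjusted p = 1.54e-08) and at least 58.8-fold higher in wild-type cells (adjusted p = 2.17e-10). The lowest fitted differences among the alternatives lay below these bounds, at 2.81 log2 units in transgenic and 3.68 in wild-type cells.

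Cxcl3, a further Cxcr2 ligand, had the highest fitted differences of the 8 members in transgenic cells. With tumour material it stood at 5.40 and 5.78 in transgenic cells, against −4.69, −4.84 and −4.72 in transgenic control cells, where no array was above background. Wild-type levels were 6.12, 6.01 and 6.00 with tumour material, against −0.36, −3.40 and −0.88 in control medium, where 3 of 4 arrays were above background. Replicate 2 of wild-type control was thus the low one of its group. The rise was at least 463-fold in transgenic cells (adjusted p = 1.35e-06). Its lowest fitted difference among the alternatives, 6.19 log2 units, lay below that bound. In wild-type cells the difference was 7.43 (SE 0.54, adjusted p = 9.3e-07).

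Cxcl5, also known as LIX in mouse, rose by less. It stood at 0.62 and 0.74 in transgenic cells with tumour material, against −2.07, −3.51 and −2.19 in transgenic control cells. Wild-type levels were 4.64, 4.44 and 4.52 with tumour material, against 0.66, −2.78 and 0.55 in control medium. The groups did not overlap in either genotype, and wild-type control replicate 2 was again low. The difference was 2.97 in transgenic cells (SE 0.84, adjusted p = 0.0228) and 4.81 in wild-type cells (SE 0.65, adjusted p = 0.000113). The transgenic call was lost under several alternatives, among them averaging the repeat arrays of a replicate (2.65, adjusted p = 0.145) and leaving out wild-type tumour replicate 3 (2.72, adjusted p = 0.0745), transgenic control replicate 3 (2.97, adjusted p = 0.107) or transgenic tumour replicate 3 (3.15, adjusted p = 0.111).

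**Figure D2:**
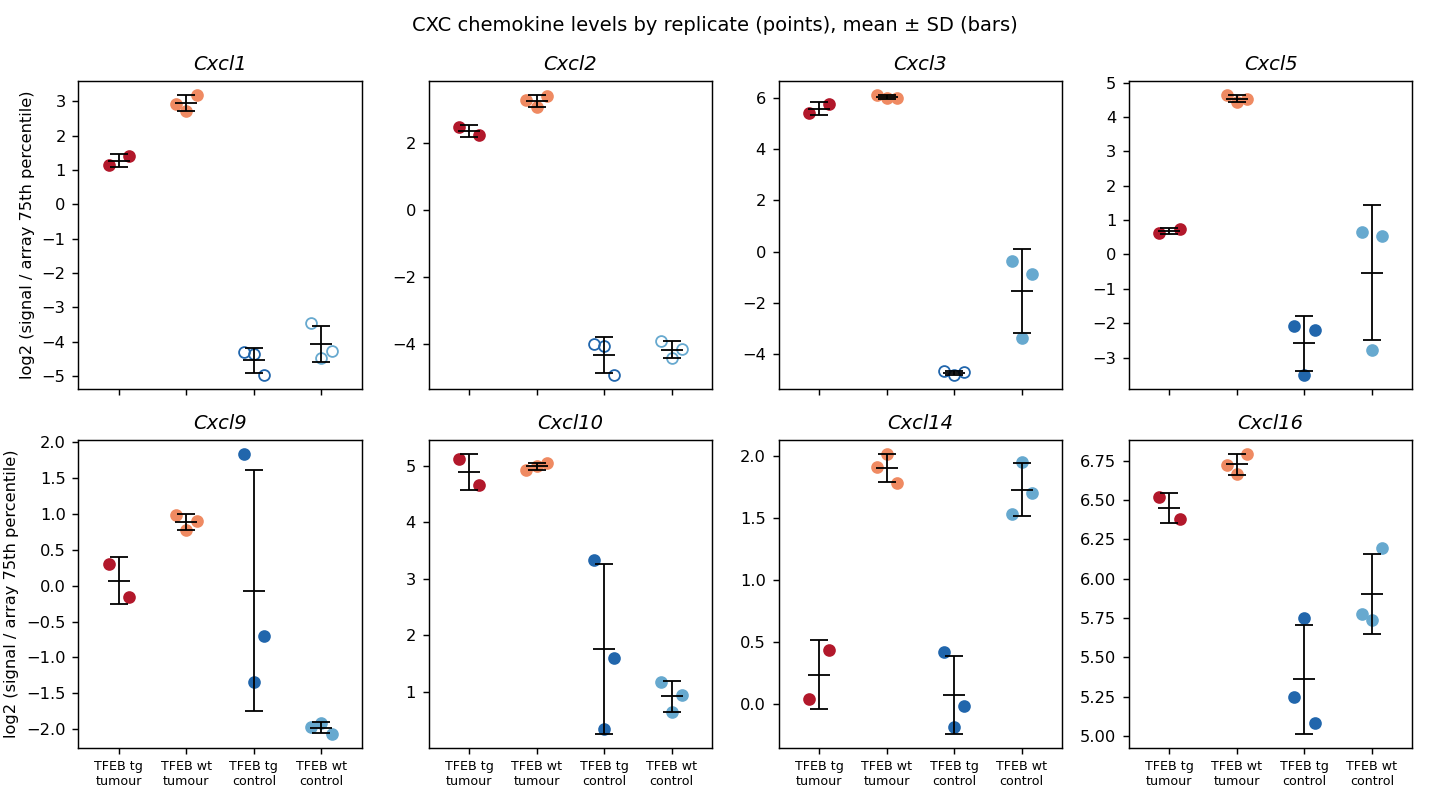
Level of each of 8 CXC chemokines in every replicate, with log2 units relative to the 75th percentile of the array on the y axis (each panel has its own scale), for transgenic tumour, wild-type tumour, transgenic control and wild-type control macrophages from left to right. Points are replicates, open where no array of the group was above background, and bars are mean ± SD; Cxcl1 and Cxcl2 are open in both control groups, and Cxcl14 separates by genotype in both media.

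Of the interferon-induced members, Cxcl10 had the larger response. It stood at 5.12 and 4.67 in transgenic cells with tumour material, against 3.34, 0.35 and 1.59 in transgenic control cells. Wild-type cells had 4.93, 4.99 and 5.06 with tumour material, against 1.18, 0.63 and 0.94 in control medium. The difference was 3.16 in transgenic (SE 0.63, adjusted p = 0.00307) and 4.08 in wild-type cells (SE 0.48, adjusted p = 3.97e-05). The groups did not overlap in either genotype, and the transgenic control replicates were the most scattered.

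Cxcl9 stood at 0.30 and −0.16 in transgenic cells with tumour material, against 1.85, −1.34 and −0.71 in transgenic control cells, and these groups overlapped because of transgenic control replicate 1. In wild-type cells it stood at 0.99, 0.77 and 0.91 with tumour material, against −1.97, −1.91 and −2.06 in control medium, where 1 of 4 arrays was above background. The difference was 2.89 in wild-type cells (SE 0.54, adjusted p = 0.00126). In transgenic cells it was 0.36 (95% interval −1.18 to 1.91, adjusted p = 0.751), and without transgenic control replicate 1 it was 0.99 (adjusted p = 0.0423). Leaving out transgenic control replicate 2 or 3 gave −0.18 and −0.06. A dimmer probe for Cxcl9 was above background on 0 of 3 transgenic tumour arrays, so it gives no rise in transgenic cells, and it was at least 1.78-fold higher in wild-type cells.

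Cxcl16 was bright in all groups. It stood at 6.52 and 6.38 in transgenic cells with tumour material, against 5.25, 5.75 and 5.08 in transgenic control cells. Wild-type levels were 6.72, 6.66 and 6.80 with tumour material, against 5.78, 5.74 and 6.19 in control medium. These are differences of 1.06 (SE 0.21, adjusted p = 0.00315) and 0.78 (SE 0.16, adjusted p = 0.00252), with no overlap in either genotype. The transgenic call was lost without transgenic control replicate 3 (0.70, adjusted p = 0.0676), and the wild-type call on slide 2 alone (0.62, adjusted p = 0.185).

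Cxcl14 stood at 0.04 and 0.43 in transgenic cells with tumour material, against 0.42, −0.19 and −0.02 in transgenic control cells. In wild-type cells it stood at 1.91, 2.02 and 1.79 with tumour material, against 1.54, 1.96 and 1.70 in control medium. The media overlapped in both genotypes. The difference between media was 0.40 in transgenic cells (95% interval −0.05 to 0.86, adjusted p = 0.188) and 0.15 in wild-type cells (95% interval −0.20 to 0.51, adjusted p = 0.476).

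**Figure D3:**
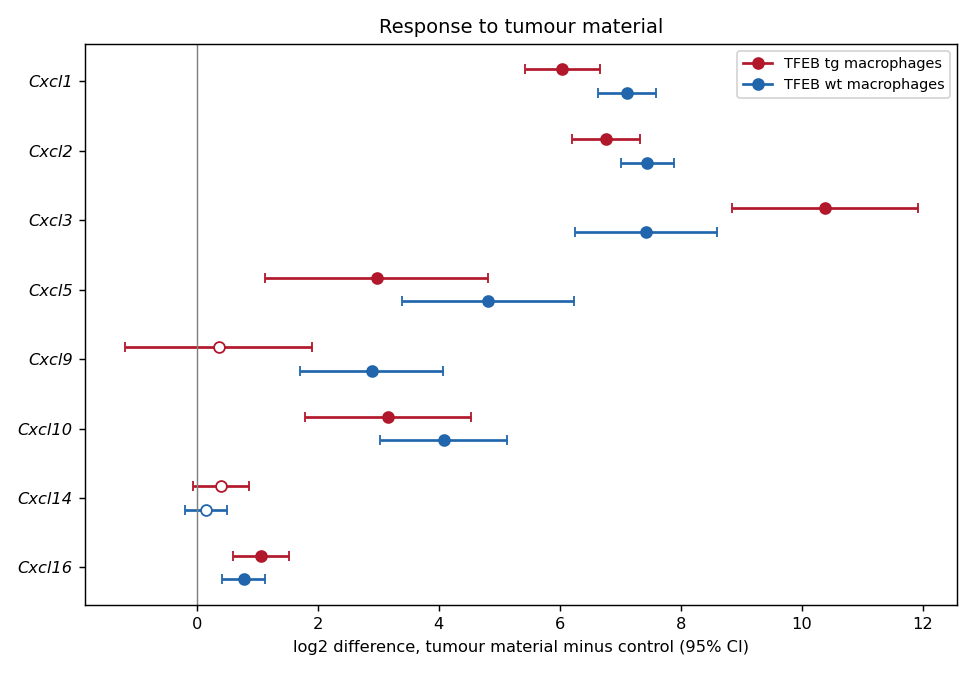
Response of 8 CXC chemokines to tumour material, as the log2 difference of tumour material minus control on the x axis with its 95% interval, transgenic above wild-type for each gene. Filled points passed the test; Cxcl1 and Cxcl2 in both genotypes and Cxcl3 in transgenic cells are fitted values against controls not above background.

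Set side by side, the 4 neutrophil attractants had a median difference of 6.40 in transgenic and 7.27 in wild-type cells. With genes whose control arrays were all dim held at their bound, these medians were 5.08 and 5.72. The 2 interferon-induced members tested had medians of 1.76 in transgenic and 3.49 in wild-type cells. The median of all genes tested was 0.07 in transgenic and 0.04 in wild-type cells. The ranges of these classes overlapped in transgenic cells, where Cxcl5 at 2.97 lay below Cxcl10 at 3.16, and not in wild-type cells, where Cxcl5 at 4.81 was the lowest attractant and Cxcl10 at 4.08 the higher of the interferon-induced members. The classes were not set against each other by a test. The attractants passed the filter on dim probes only through the tumour groups, so their medians are a description. On slide 2 alone the transgenic response was 2.87 for Cxcl5, 0.78 for Cxcl9 and 3.30 for Cxcl10. The wild-type response of Cxcl5 was 5.06 on slide 1 and 3.96 on slide 2, and that of Cxcl10 4.22 and 3.69. For Cxcl9 it was 2.76 on slide 1, and on slide 2 its wild-type control array was not above background.

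The second question was what the transgene changed in each medium. With tumour material, Cxcl1, Cxcl5 and Cxcl14 were lower in transgenic than in wild-type macrophages, and no member was higher. That is 3 of 8 members lower, where 2.46% of all genes tested were, and 0 higher, where 2.16% were. The replicates of 7 of the 8 members lay wholly lower in transgenic cells, Cxcl10 being the exception, against 24.6% of all genes, and those of none lay wholly higher (23.2% of all genes). The median over the 8 members was −0.69, with 0.01 over all genes.

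Cxcl5 differed most. With tumour material its mean was 0.68 ± 0.08 in transgenic (SD, n = 2) and 4.53 ± 0.10 in wild-type cells (n = 3), a fitted difference of −4.19 (SE 0.84, adjusted p = 0.0143). Cxcl1 averaged 1.27 ± 0.18 in transgenic (n = 2) and 2.94 ± 0.23 in wild-type cells (n = 3), a difference of −1.48 (SE 0.28, adjusted p = 0.0107). Cxcl14 averaged 0.23 ± 0.28 in transgenic (n = 2) and 1.91 ± 0.12 in wild-type cells (n = 3), which is −1.38 (SE 0.21, adjusted p = 0.00284). Slide 2 by itself gave differences of −3.78 for Cxcl5, −1.82 for Cxcl1 and −1.33 for Cxcl14. All 3 calls were lost when repeat arrays were averaged into 1 value per replicate, with adjusted p of 0.141 for Cxcl5, 0.194 for Cxcl1 and 0.0516 for Cxcl14, and without wild-type tumour replicate 3, with adjusted p of 0.128, 0.295 and 0.0615. The fit to slide 2 alone leaves 1 residual degree of freedom, too few to call any gene in this comparison. It therefore cannot decide whether these 3 calls hold. Leaving out transgenic tumour replicate 3, which leaves that group 1 replicate whose spread is assumed to be that of the other groups, ended the calls of Cxcl5 (adjusted p = 0.24) and Cxcl1 (adjusted p = 0.117). The fit used here put a correlation of only 0.071 between arrays of 1 replicate, which leaves the repeat arrays counting almost as separate samples.

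The other members did not pass with tumour material. Cxcl2 averaged 2.36 ± 0.18 in transgenic (n = 2) and 3.26 ± 0.17 in wild-type cells (n = 3), a difference of −0.83 (95% interval −1.39 to −0.27, adjusted p = 0.104) that passed after quantile normalization (−0.96, adjusted p = 0.0138) and without transgenic control replicate 1 (−0.91, adjusted p = 0.0261) or 3 (−1.09, adjusted p = 0.00586). Cxcl3 differed by −0.40 (95% interval −1.92 to 1.12, adjusted p = 0.809). Cxcl16 differed by −0.32 (−0.78 to 0.13, adjusted p = 0.45). Of the interferon-induced members, Cxcl9 differed by −0.56 (−2.09 to 0.98, adjusted p = 0.724) and Cxcl10 by −0.07 (−1.43 to 1.28, adjusted p = 0.967). Without the repeat arrays the sign turned for 4 of these uncalled members, to 0.10 for Cxcl2, 0.47 for Cxcl9, 0.12 for Cxcl10 and 0.19 for Cxcl16. The neutrophil attractants had a median transgene difference of −1.15 and the interferon-induced members one of −0.31, with 2 of 4 and 0 of 2 members called.

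In control medium, Cxcl3 and Cxcl14 were lower in transgenic macrophages, 2 of 8 members, where 5.27% of all genes were, and 0 were higher, where 3.62% were. Cxcl1 and Cxcl2 were below background in both control groups, which leaves 6 members with a measured value. Replicates lay wholly lower for Cxcl3 and Cxcl14 (12.6% of all genes) and wholly higher for Cxcl9 (8.91% of all genes). Cxcl14 averaged 0.07 ± 0.31 in transgenic and 1.73 ± 0.21 in wild-type control cells (SD, n = 3 each). The fitted difference was −1.63 (SE 0.17, adjusted p = 0.000228), and it was −1.67 within slide 1 and −1.55 within slide 2. Among the alternatives run, the call was lost on slide 2 alone. That fit leaves 1 residual degree of freedom, too few to call any gene in this comparison, so it cannot decide whether the call holds. Cxcl14 was therefore the 1 member called lower in transgenic cells in both media.

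Cxcl3 was at least 3.29-fold lower in transgenic control cells (adjusted p = 0.00417), where no array was above background, than in wild-type control cells. Leaving out replicate 3 of wild-type control ended the call (−2.85, adjusted p = 0.0733), as did normexp background correction with quantile normalization (−0.66, adjusted p = 0.166). Cxcl5 averaged −2.59 ± 0.80 in transgenic and −0.53 ± 1.96 in wild-type control cells (SD, n = 3 each), a difference of −2.35 (adjusted p = 0.0578). Without wild-type control replicate 2 it was −3.18 (adjusted p = 0.000223) and without transgenic control replicate 1 −2.86 (adjusted p = 0.0296). Cxcl1 and Cxcl2 were below background in both control groups, so no fold is given.

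The interferon-induced members went the other way in control medium, without passing the test. Cxcl9 differed by 1.97 (SE 0.58, adjusted p = 0.0572) and Cxcl10 by 0.85 (SE 0.51, adjusted p = 0.333). Both values rest in part on transgenic control replicate 1. Without it Cxcl9 differed by 0.98 (adjusted p = 0.0473) and Cxcl10 by −0.020 (adjusted p = 0.978). Without transgenic control replicate 2 they differed by 2.76 (adjusted p = 0.00574) and 1.65 (adjusted p = 0.0154). Cxcl16 differed by −0.61 (SE 0.17, adjusted p = 0.0503), and passed without wild-type control replicate 2 (−0.69, adjusted p = 0.0446) or transgenic control replicate 2 (−0.86, adjusted p = 0.0074). The part of the neutrophil markers of transgenic control replicate 1 in its Cxcl9 and Cxcl10 levels was not tested.

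**Figure D4:**
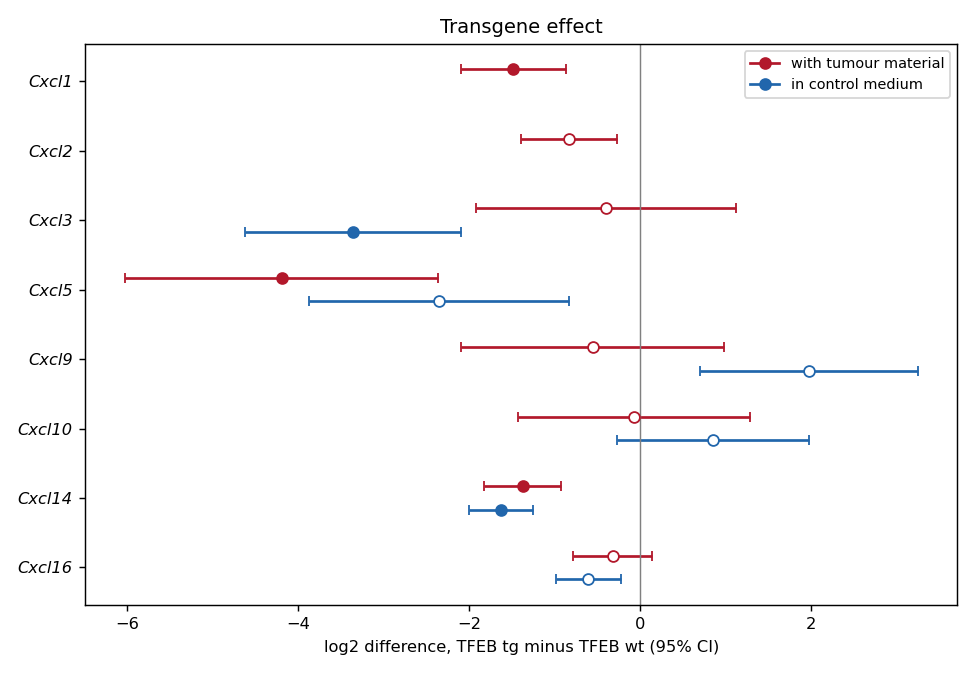
Transgene effect on 8 CXC chemokines, as the log2 difference of transgenic minus wild-type macrophages on the x axis with its 95% interval, with tumour material above control medium for each gene. Filled points passed the test; Cxcl1 and Cxcl2 have no control value because both groups were below background, and Cxcl14 lies to the left of 0 in both media.

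Whether the response to tumour material differed between genotypes was tested as an interaction, the transgenic response minus the wild-type response. None of the 8 members passed in limma, where 1.91% of all genes did, and 3 of the 8 had an unadjusted p under 0.05. These were Cxcl3 at 2.96 (SE 0.88, adjusted p = 0.139), Cxcl1 at −1.07 (SE 0.36, adjusted p = 0.194) and Cxcl9 at −2.53 (SE 0.89, adjusted p = 0.228). The Cxcl3 value rests on transgenic control arrays that were all dim, and the Cxcl1 and Cxcl2 values on control arrays of both genotypes that were, so these 3 depend on the signal of dim probes. Cxcl5 stood at −1.84 (95% interval −4.17 to 0.49, adjusted p = 0.549) and Cxcl2 at −0.68 (−1.40 to 0.03, adjusted p = 0.428). Cxcl10 stood at −0.92, Cxcl14 at 0.25 and Cxcl16 at 0.29. Without wild-type control replicate 2 Cxcl3 passed (3.88, adjusted p = 0.00055), and without transgenic control replicate 1 Cxcl9 passed (−1.92, adjusted p = 0.0152). Without transgenic control replicate 2 Cxcl9 stood at −3.09 (adjusted p = 0.0286), and without transgenic control replicate 3 Cxcl2 stood at −1.27 (adjusted p = 0.0424). Under normexp Cxcl1 (−1.40, adjusted p = 0.00163) and Cxcl5 (−2.41, adjusted p = 0.0101) passed.

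The summed level of fibroblast markers moved with part of this pattern. Of 6 markers (collagens, decorin, lumican and Pdgfra), 3 were above background on all arrays of the transgenic tumour group, 5 in wild-type tumour, 2 in transgenic control and 3 in wild-type control. Pdgfra was below background on every array and Lum in both control groups. Of 5 tested, 2 were higher with tumour material in wild-type cells (median −0.11, 22.6% of all genes higher). In transgenic cells 1 was higher (median 0.34, 15.4% of all genes), and 0 were lower in either genotype. Between genotypes 1 of 5 was lower in transgenic cells in each medium (2.46% of all genes with tumour material, 5.27% in control medium). The median difference of the 5 was −2.70 with tumour material and −1.78 in control medium. Bright markers weigh most in a sum. The summed level, in multiples of the array's 75th percentile, was 9.49 to 10.6 in transgenic tumour, 39.6 to 51.9 in wild-type tumour, 1.12 to 11.8 in transgenic control and 1.68 to 26.9 in wild-type control. Wild-type control replicate 2, low for Cxcl3 and Cxcl5, was also the low one at 1.68, against 25.0 and 26.9 in the other wild-type control replicates. Cxcl14 was highest in that replicate (1.96). The part of fibroblast markers in the levels of Cxcl3, Cxcl5 and Cxcl14 was not tested.

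**Figure D5:**
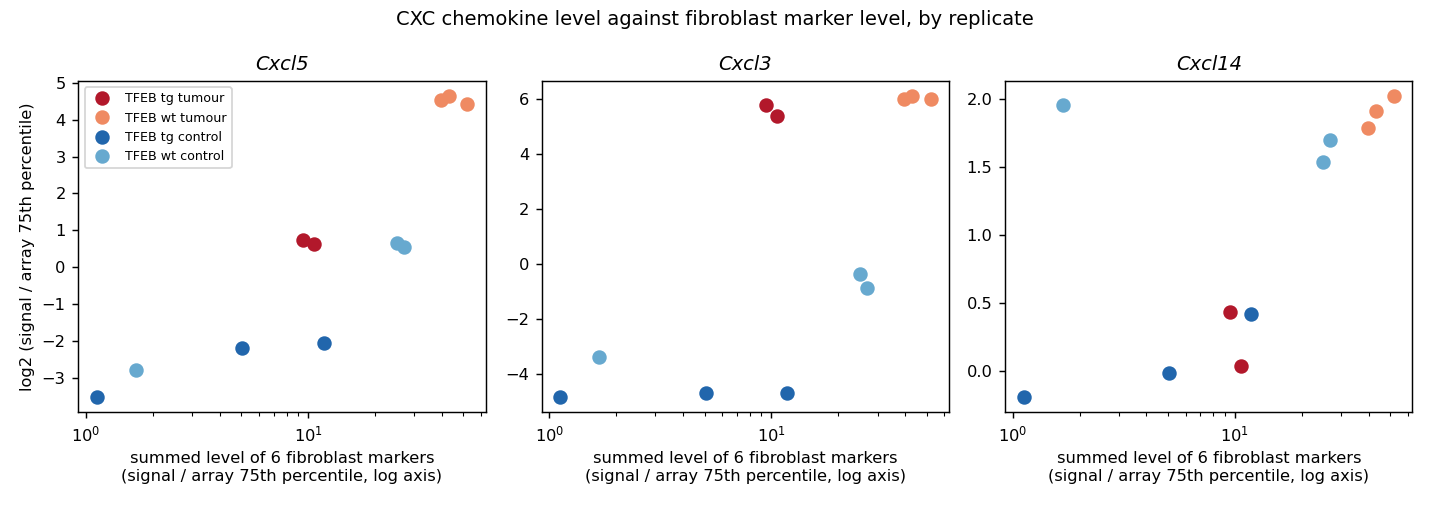
Level of Cxcl5, Cxcl3 and Cxcl14 (y axis, log2 units relative to the 75th percentile of the array) against the summed level of 6 fibroblast markers (x axis, multiples of that percentile, log scale) in each of 11 replicates, coloured by group. Wild-type control replicate 2, at 1.68 on the x axis, is low for Cxcl5 and Cxcl3 and high for Cxcl14.

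The members varied together to different degrees. Over the 11 replicates the Pearson correlation of Cxcl1 was 0.99 with Cxcl2, 0.96 with Cxcl3 and 0.88 with Cxcl5, and that of Cxcl9 with Cxcl10 was 0.83. Cxcl10 was at 0.91 with Cxcl1 and 0.93 with Cxcl2, and Cxcl9 at 0.61 and 0.62. Cxcl14 was between −0.06 and 0.62 with every other member. The replicates fall into 2 media and share arrays between genes, so these values include the difference between media and describe these samples only. Probes of the closely related Cxcl1, Cxcl2 and Cxcl3 may share signal, which was not tested.

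Among 10966 named genes outside the family, those most like the mean profile of the neutrophil attractants were Ptgs2 (r = 0.996), the enzyme that starts prostaglandin synthesis, Tarm1 (0.994), Il6 (0.994), a cytokine of the acute phase, the aryl hydrocarbon receptor Ahr (0.993) and uridine phosphorylase Upp1 (0.991). The genes most like the interferon-induced profile were the kinase Ikbke (0.984), Zbtb3 (0.980), Ebna1bp2 (0.979), Parp10 (0.979) and Cmtr1 (0.969).

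Of 6 other CXC ligands, 2 were tested. Pf4, platelet factor 4, was higher with tumour material by 2.70 in transgenic (SE 0.20, adjusted p = 2.41e-06) and 1.82 in wild-type cells (SE 0.15, adjusted p = 2.72e-06). Ppbp, the precursor of Cxcl7, differed by 0.06 in transgenic cells (adjusted p = 0.93) and was higher by 2.19 in wild-type cells (SE 0.31, adjusted p = 0.000159). It was lower in transgenic than in wild-type cells with tumour material (−1.84, SE 0.40, adjusted p = 0.0222), and Pf4 was lower in transgenic cells in control medium (−0.80, SE 0.16, adjusted p = 0.0102).

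Of 8 CXC receptors, 3 were tested. Cxcr3, the receptor for Cxcl9 and Cxcl10, fell by 2.56 in transgenic (SE 0.19, adjusted p = 2.51e-06) and fell by 3.25 in wild-type cells (SE 0.14, adjusted p = 1.78e-08). Cxcr4, the Cxcl12 receptor, fell by 1.42 in transgenic (SE 0.46, adjusted p = 0.0401) and fell by 2.35 in wild-type cells (SE 0.35, adjusted p = 0.000254). Cxcr6, the Cxcl16 receptor, did not pass in either response and was lower in transgenic cells in control medium (−0.97, SE 0.27, adjusted p = 0.0437). Cxcr1 and Cxcr2, the receptors of the neutrophil attractants, did not pass the filter on dim probes.

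Of 18 genes of the NF-kB, IL-1 and TNF inputs, 16 were tested. With tumour material 11 were higher in transgenic and 13 in wild-type cells, and 0 were lower in either. Over all genes tested, 15.4% were higher and 9.98% lower in transgenic cells, and 22.6% and 17.1% in wild-type cells. The list's median was 1.05 in transgenic and 0.76 in wild-type cells. Il1b, which codes for IL-1 beta, rose by 7.45 in transgenic (SE 0.39, adjusted p = 1.97e-07) and 3.49 in wild-type cells (SE 0.30, adjusted p = 3.51e-06). Il1a was at least 23.6-fold higher in transgenic and at least 58.4-fold higher in wild-type cells. Tnf rose by 2.90 in transgenic and 3.07 in wild-type cells. Between genotypes with tumour material 1 of 16 was lower in transgenic cells, where 2.46% of all genes were. This was Nfkbiz, a nuclear cofactor of NF-kB, at −1.23 (SE 0.17, adjusted p = 0.00146). In control medium 3 of 16 were lower in transgenic cells, where 5.27% of all genes were. These were Il1b (−4.60, SE 0.32, adjusted p = 1.83e-05), Nfkbiz (−0.81) and Cebpd (−0.79).

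Of 18 genes of the interferon inputs, 16 were tested. With tumour material 11 were higher and 1 lower in transgenic cells, and 9 higher and 1 lower in wild-type cells, with medians of 0.65 and 0.55. Shares of all genes were 15.4% higher and 9.98% lower in transgenic cells, and 22.6% and 17.1% in wild-type cells. Ifnb1, interferon beta, rose by 6.00 in transgenic cells (SE 0.85, adjusted p = 0.000314) and was at least 18.7-fold higher in wild-type cells (adjusted p = 3.73e-05). Socs1, a feedback inhibitor of JAK kinases, rose by 4.73 in transgenic (adjusted p = 7.65e-10) and 5.32 in wild-type cells (adjusted p = 7.29e-12). Usp18, a feedback inhibitor of the type I receptor, rose by 2.11 in transgenic and 2.28 in wild-type cells. The lower gene in both genotypes was Ifngr1, a chain of the interferon gamma receptor. Between genotypes, 1 of 16 was lower in transgenic cells with tumour material (Socs1, −0.58, adjusted p = 0.0232) and 1 in control medium (Ifnar1, −0.56, adjusted p = 0.0202). The lower share of all genes was 2.46% with tumour material and 5.27% in control medium.

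Of 10 factors of chemokine mRNA decay and stability, 8 were tested. With tumour material 3 were higher and 0 lower in transgenic cells, and 4 higher and 2 lower in wild-type cells. Among all genes, 15.4% were higher and 9.98% lower in transgenic cells, and 22.6% and 17.1% in wild-type cells. Traf3ip2, an adaptor of the IL-17 receptor, rose by 1.12 in transgenic (adjusted p = 0.0289) and 1.66 in wild-type cells (adjusted p = 0.000319). Arid5a, which binds and stabilises cytokine mRNAs, rose by 2.02 in transgenic cells (SE 0.51, adjusted p = 0.0127). None of the 8 passed between genotypes in either medium.

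Of 10 proteases that cut or shed CXC chemokines, 9 were tested. With tumour material 4 were higher and 3 lower in transgenic cells, and 4 higher and 2 lower in wild-type cells. The shares of all genes were 15.4% and 9.98% in transgenic cells, and 22.6% and 17.1% in wild-type cells. The matrix metalloproteinase Mmp9 rose by 3.47 in transgenic (adjusted p = 0.0293) and 5.30 in wild-type cells (adjusted p = 0.000265), and Mmp8 by 4.51 in transgenic (adjusted p = 0.000214) and 2.11 in wild-type cells (adjusted p = 0.00348). In control medium the neutrophil proteases Ctsg, Elane and Prtn3 were higher in transgenic cells, by 2.10, 1.74 and 1.68, and Mmp8, Mmp12 and Mmp14 were lower, by −1.97, −1.46 and −1.55. In that comparison 3.62% of all genes were higher and 5.27% lower. Ctsg and Elane are also among the neutrophil markers. Those markers summed to 684.5 in transgenic control replicate 1, to 211.6 and 236.7 in replicates 2 and 3, and to 279.3 to 297 in wild-type control. The part of replicate 1 in the differences of Ctsg, Elane and Prtn3 was not tested. None of the 9 passed between genotypes with tumour material.

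All members but Cxcl14 and Cxcl16 lie on chromosome 5, and 20 other protein-coding genes lie between Cxcl5 and Cxcl11 there. Of these 10 were tested. With tumour material 2 were higher and 0 lower in transgenic cells, and 4 higher and 1 lower in wild-type cells. For all genes the shares were 15.4% and 9.98% in transgenic cells, and 22.6% and 17.1% in wild-type cells. Beside Pf4 and Ppbp, the higher ones were Mthfd2l in both genotypes (1.19 in transgenic and 1.55 in wild-type cells) and Ppef2 in wild-type cells (at least 2.72-fold). The neighbours' median was 0.08 in transgenic and −0.03 in wild-type cells. With tumour material Ppef2 and Ppbp were lower in transgenic than in wild-type cells.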

How the data were processed

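RNA (200 ng per sample, per the labels' protocols) was labelled with Cy3 and hybridised to one-colour Agilent mouse arrays, and the submitters' processing notes name Agilent Feature Extraction 10.7.3.1 as the scan software. The deposited scanner files give each spot's intensity with background subtracted and spatial trends removed, per the file headers, and say which spots are above background. The deposited series matrix holds log2 values with the same quantiles in every column; it served as an alternative only.

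Control spots and spots with outlier marks were left out (47 probes lost), spots of a probe were averaged, and the log2 signal was taken minus the array's 75th percentile. Of 55634 probes, 20208 were kept, those that some group showed well above background on its every array, and the brightest probe stood for a gene. Symbols came from RefSeq accessions. limma 3.58.1 (R 4.3.3) modelled the 4 groups and the slide and treated arrays of the same replicate as correlated (0.071, estimated by duplicateCorrelation), which left 9 residual degrees of freedom; titles ending in -2 were read as repeat arrays of a replicate. Adjusted p is Benjamini-Hochberg over 15835 genes. The number of arrays limits the precision. The scanner files used here hold no mean signal column, so the normexp alternative (offset 50) used median signals. Members and lists were chosen with earlier results of these data known. The scripts were tested on simulated data with known changes. The text names all 9 members, up to 3 called genes of each list with the largest differences, those that a count of 5 or fewer needs, and the 5 genes most like each profile.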

Additional observations from a re-analysis of the deposited data

Results flagged for a closer look

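With 2 or 3 replicates in a group, no sample was tested for standing apart from its group. Of the 8 members, 0 passed the limma interaction test of transgenic against wild-type responses (3 had an unadjusted p under 0.05). Of 99 tested genes, a count that includes the 8 members and the genes of the surrounding lists, 5 passed, where 1.91% of all genes did. All 5 were genes of the lists. Il1b had an interaction of 3.95 (SE 0.49, adjusted p = 0.00196), a larger rise in transgenic cells. Lum had −4.46 (SE 0.21, adjusted p = 1.21e-06) and Ppef2 −3.20 (SE 0.50, adjusted p = 0.00644), both with dim arrays in some groups. Mmp12 had 1.80 (SE 0.24, adjusted p = 0.00302) and Mmp14 1.75 (SE 0.35, adjusted p = 0.027).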

How the results depend on the processing

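Of 941 member values under the alternatives, 868 kept their direction and side of the threshold, 29 lost a call, 29 gained one and 15 changed direction. All of the reversed values were uncalled. Cxcl9 in the transgenic response was −0.18 and −0.061 without transgenic control replicates 2 and 3, and at most 0.99 with any replicate left out. Without the repeat arrays the transgene effect with tumour material was 0.10 for Cxcl2, 0.47 for Cxcl9, 0.12 for Cxcl10 and 0.19 for Cxcl16. For Cxcl3 it was 0.021 under normexp. For Cxcl10 it was 0.15 on slide 2, 0.11 with slide column 4 as a term, 0.10 without that column's arrays, 0.0053 with repeat arrays averaged, 0.16 without transgenic control replicate 2 and between −0.42 and 0.28 with any replicate left out, the upper end without transgenic tumour replicate 3. With 1 replicate left out, Cxcl10 in control medium ran between −0.020 (without transgenic control replicate 1) and 1.65, and the Cxcl16 interaction between −0.060 (without transgenic control replicate 3) and 0.44. The cause was not tested.

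Counts of called genes moved more than 1.5 times from 4019 in the transgenic response, 6291 in the wild-type response, 731 for the transgene with tumour material, 1408 in control medium and 302 for the interaction as follows. Slide 2 alone gave 2016, 1172, 0, 0 and 0, with 2333, 2859 and 1892 genes at an unadjusted p under 0.05 in the last 3. Averaging repeat arrays gave 2669 in the transgenic response, 169 for the transgene with tumour material and 93 for the interaction, and dropping them 213 and 118 for these last 2. Slide column 4 as a term gave 448, 649 and 191 for the transgene with tumour material, in control medium and the interaction; without its arrays 1612 and 821 were called for the transgene with tumour material and the interaction. No slide term gave 1133 for the transgene with tumour material, and no filter on dim probes 913 in control medium and 178 for the interaction. Leaving out 1 replicate gave 2339 to 5288 in the transgenic response, 3992 to 7944 in the wild-type response, 127 to 2067 for the transgene with tumour material, 426 to 2722 in control medium and 44 to 1215 for the interaction. Quantile normalization turned the split of higher and lower calls to 1971 and 1915 in the transgenic response (2438 and 1581 in the main fit) and to 3077 and 3251 in the wild-type response (3580 and 2711). Under normexp it was 267 and 588 for the transgene with tumour material (342 and 389), and 147 and 185 for the interaction (167 and 135).

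A fit with the replicate number as a block changed 1 of 38 member calls, Cxcl5 in control medium (−2.30, adjusted p = 0.0418), and called 3699, 6136, 545, 1119 and 271 genes. The deviations of same-numbered samples from their group means correlated at −0.216 to 0.202 in 15 pairs, 3 of them over 0.1. Deviations within a group of 2 or 3 replicates depend on each other, so these values cannot settle whether same-numbered samples pair. A filter to probes above background on all arrays left out Cxcl1, Cxcl2, Cxcl3, Cxcl5 and Cxcl9, and is not a test of them.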
